A study of Mus musculus with 18 samples.

Results

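Interferon-stimulated genes were examined in microglia of the mouse medial prefrontal cortex (mPFC), the resident macrophages of the brain. The set was a list of 44 gene symbols given by name, drawn up with earlier results of these data known, and all 44 were found among the 22428 genes of the deposited table. The cells were CD11b+, CD45+ and P2ry12+ and were sorted by FACS at postnatal day 51 (P51) from C57BL6/J-background mice. Wild-type mice and mice with a duplication of the 16p11.2 region (16p11dup) received vehicle, a saline and Cremophor mixture, or Δ9-tetrahydrocannabinol (THC) at 8 mg/kg, injected subcutaneously each day from P30 to P51. The 18 libraries were 6 of WT-Veh, 4 of WT-THC, 4 of 16p11dup-Veh and 4 of 16p11dup-THC. No source states that each library came from 1 mouse or gives the sex of these mice, so p-values measure the spread between libraries, which may be technical. The comparisons address what THC exposure in adolescence, the duplication and the combination of both did to the microglial transcriptome.

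Type I interferons (IFN-α and IFN-β) signal through the receptor of Ifnar1 and Ifnar2, the kinases Jak1 and Tyk2, and a complex with STAT2 and IRF9 that binds an interferon-stimulated response element (ISRE) in the promoters of target genes. Interferon-γ signals through Ifngr1 and Ifngr2, and its target genes can hold a gamma-activated site (GAS). The induced proteins sense foreign nucleic acids, degrade viral RNA, hold back viral particles at membranes and modify proteins with ISG15 or ADP-ribose. In brain, microglia both produce and respond to type I interferons in infection, ageing and neurodegeneration.

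ISRE and GAS cores were searched in RefSeq promoters (GRCm38.p6), each window running from 250 bases before to 50 bases after a transcription start. Of the 44 genes, 34 matched at least 1 window, and these genes had 42 windows in all. An ISRE core, searched as GAAANNGAAA on both strands, was present in 20 of the 42 windows (47.6%), compared with 3.44% of all 32851 windows. A GAS core, searched as TTCNNNGAA, which reads the same on both strands, was present in 10 of the 42 windows (23.8%), compared with 8.30% of all windows, and 2 of the 11 GAS matches overlapped an ISRE match. The windows below are printed 5′ to 3′ on the strand of the gene with ISRE matches in capitals. Isg15 is shown for its 3 overlapping cores, the most of any window in the set, and Ifit3 for 2 separate cores. Gbp7 and Trim30a were among the most abundant genes of the set and each hold 1 core in the window shown. Samhd1 and Znfx1, the genes lower in WT-THC below, hold none in these windows. Ifi27 and Ifi204, also described below, were among the 10 genes without a window.
Isg15, chr4:156200769-156201068, minus strand: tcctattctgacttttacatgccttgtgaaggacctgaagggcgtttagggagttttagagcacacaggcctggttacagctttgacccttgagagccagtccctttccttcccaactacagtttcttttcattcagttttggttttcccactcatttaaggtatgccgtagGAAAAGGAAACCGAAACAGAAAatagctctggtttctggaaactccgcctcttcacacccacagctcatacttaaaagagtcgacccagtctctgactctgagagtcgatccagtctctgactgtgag
Ifit3, chr19:34583279-34583578, plus strand: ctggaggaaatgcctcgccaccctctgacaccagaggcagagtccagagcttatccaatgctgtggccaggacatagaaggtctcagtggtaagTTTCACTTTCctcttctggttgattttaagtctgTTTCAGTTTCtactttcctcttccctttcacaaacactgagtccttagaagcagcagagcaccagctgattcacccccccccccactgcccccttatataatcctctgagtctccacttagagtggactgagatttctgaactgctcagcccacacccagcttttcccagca
Gbp7, chr3:142530086-142530385, plus strand: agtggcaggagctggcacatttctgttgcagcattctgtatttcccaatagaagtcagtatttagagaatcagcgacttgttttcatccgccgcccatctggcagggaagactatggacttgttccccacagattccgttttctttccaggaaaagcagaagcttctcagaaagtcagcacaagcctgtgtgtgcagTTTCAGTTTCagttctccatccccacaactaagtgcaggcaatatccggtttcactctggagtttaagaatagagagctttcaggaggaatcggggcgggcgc
Trim30a, chr7:104465144-104465443, minus strand: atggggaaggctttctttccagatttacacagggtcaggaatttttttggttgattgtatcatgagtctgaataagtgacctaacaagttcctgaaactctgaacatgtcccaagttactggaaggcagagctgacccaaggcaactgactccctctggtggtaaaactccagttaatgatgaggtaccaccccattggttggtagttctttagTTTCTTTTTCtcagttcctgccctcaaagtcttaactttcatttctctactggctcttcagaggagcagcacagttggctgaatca
Samhd1, chr2:157135047-157135346, minus strand: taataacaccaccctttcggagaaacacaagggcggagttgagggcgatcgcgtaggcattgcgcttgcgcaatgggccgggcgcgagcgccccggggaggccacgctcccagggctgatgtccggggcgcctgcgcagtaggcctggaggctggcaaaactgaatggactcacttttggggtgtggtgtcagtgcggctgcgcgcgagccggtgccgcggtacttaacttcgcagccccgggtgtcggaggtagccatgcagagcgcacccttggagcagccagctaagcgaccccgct
Znfx1, chr2:167062966-167063265, minus strand: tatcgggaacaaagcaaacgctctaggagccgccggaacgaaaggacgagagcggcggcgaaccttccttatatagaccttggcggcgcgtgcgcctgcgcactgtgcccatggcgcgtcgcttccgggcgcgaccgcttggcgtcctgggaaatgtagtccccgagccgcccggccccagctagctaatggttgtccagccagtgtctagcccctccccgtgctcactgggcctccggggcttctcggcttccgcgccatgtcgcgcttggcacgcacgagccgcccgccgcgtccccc
How often genes with and without the core were counted is given as a description, without a test. Of the 19 genes with an ISRE core, 7 had a count in all 18 libraries and 7 in fewer than 9. Of the 15 genes with a window but no core, 6 had a count in all 18 libraries and 4 in fewer than 9. The median level was 5.57 CPM per kilobase of exon for the former and 2.32 for the latter. Isg15 itself was counted in 5 libraries, whereas Gbp7 and Trim30a were counted in all 18.

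Expected counts per library ranged from 7045444 to 15459286, and mapped reads made up 72.5% to 81.8% of reads. Reads on introns made up 63.4% to 69.2% of the mapped reads. Levels are in CPM, a count as a share of the scaled total of its library. The summed level of 9 microglial markers was 17905 to 35794 CPM in every library, with none of the 9 at 0 throughout a group. Single markers were less even. Cx3cr1 had 163, 16.0 and 110 CPM in WT-Veh replicates 1, 4 and 6. It had 121 CPM in WT-THC replicate 4, 346 CPM in 16p11dup-Veh replicate 3 and 2304 to 4093 CPM elsewhere. Of 7 lymphocyte markers, 6 were at 0 in all 18 libraries, as were the endothelial marker Cldn5 and the monocyte markers Ly6c2 and Plac8. Other markers of these lists were not. The endothelial Pecam1 was above 0 in every library and reached 190 CPM. The monocyte markers Chil3 and Vcan reached 31.6 and 40.2 CPM, and the lymphocyte marker Cd79a 7.17 CPM. The summed level of markers of border macrophages was 0 to 183 CPM, that of monocytes 0 to 43.4 and that of neutrophils 0 to 192 CPM. That of endothelium was 0.079 to 190, that of pericytes 0 to 96.7 and that of astrocytes 45.3 to 320 CPM. That of oligodendrocytes was 1.83 to 111 and that of neurons 0.474 to 50.3 CPM. Genes induced by tissue dissociation summed to 290 to 528 CPM in WT-Veh and 423 to 1129 CPM in WT-THC, and to 379 to 1130 CPM in 16p11dup-Veh and 204 to 744 CPM in 16p11dup-THC. In such bulk samples, fewer cells of a type and less RNA per cell cannot be told apart.

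The interferon-stimulated genes were counted in about as many libraries as other genes, and their levels differed widely from gene to gene. Of the 44 genes, 16 (36.4%) had a count in all 18 libraries, compared with 39.5% of the 13964 genes with any count. A further 14 were counted in 9 to 17 libraries, and 14 (31.8%) in fewer than 9, compared with 28.0% of all genes with any count. Together they summed to 1204 to 2727 CPM per library, with a median of 1710 CPM. Levels per kilobase (kb) of exon allow genes of different length to be compared, and these ran from 0.0078 for Ifi203 to 82.3 CPM per kb for Lgals3bp.

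**Figure D1:**
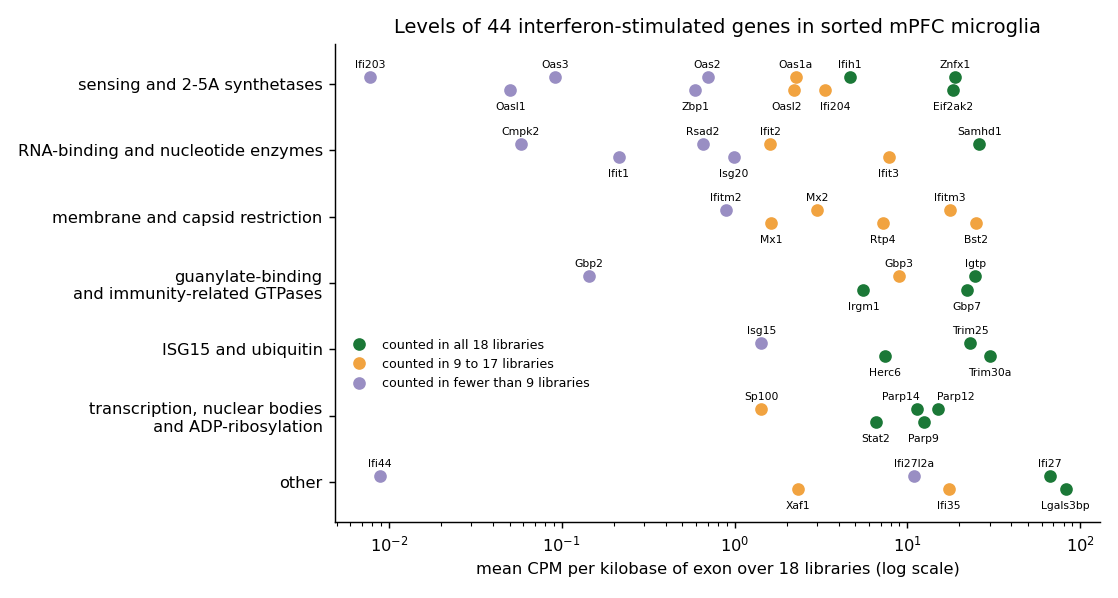
Mean level of each of the 44 genes over 18 libraries, in CPM per kilobase of exon on a log axis, in rows by role, with colour giving the number of libraries in which the gene was counted. Genes counted in all 18 libraries lie between 4.66 and 82.3 CPM per kb, and those counted in fewer than 9 libraries reach 10.9 (Ifi27l2a).

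The 8 highest genes per kb were Lgals3bp (82.3), Ifi27 (66.6), Trim30a (30.1), Samhd1 (26.1), Bst2 (25.1), Igtp (24.7), Trim25 (23.1) and Gbp7 (22 CPM per kb). Lgals3bp encodes a secreted galectin-3-binding glycoprotein. Its level ranged in WT-Veh from 30.3 over a median of 228 to 1065 CPM, and in single libraries it made up 1.26% to 39.1% of the summed CPM of the set. In WT-THC it had 412, 148, 149 and 60.9 CPM, in 16p11dup-Veh 35.7, 149, 118 and 269, and in 16p11dup-THC 137, 44.2, 273 and 247 CPM. All 4 groups overlapped. Trim30a, a tripartite-motif protein that dampens Toll-like receptor signaling, was the steadiest, between 53.5 and 304 CPM with an SD of 0.59 on the log2 scale over the 18 libraries. Parp14, an ADP-ribosyltransferase (SD 0.79), and Znfx1 (SD 0.85) followed. The widest spreads among genes counted in every library were those of Ifih1 (SD 2.09), Ifi27 (2.04) and Irgm1 (2.03), an immunity-related GTPase that ranged from 0.388 to 141 CPM. The median SD of the 16 genes counted in every library was 1.57 on the log2 scale, the same to this precision as the 1.57 of all 5520 genes counted in every library. A few of these values carry a limit of counting. RSEM gave fractional counts, which arise where reads are divided between similar genes, for Ifi204, Oas1a, Ifit3, Igtp, Trim30a and Parp9. They were fractional in all 18 libraries for Trim30a, in 9 for Parp9 and in 1 to 5 for the others. Every value of Trim30a, and thus its level and spread, depends on this division. Exons of Ifi203, Ifitm2, Igtp and Parp9 overlap those of Mndal, Gm45717, Irgm2 and Dtx3l, and since the strand was not used in counting, reads of such genes cannot always be told apart.

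Sensors of foreign nucleic acids were unevenly detected. Znfx1, a helicase that senses double-stranded RNA, Eif2ak2, which encodes the kinase PKR, and Ifih1, which encodes the RNA sensor MDA5, were counted in all 18 libraries. Eif2ak2 ranged from 6.88 to 295 CPM and Ifih1 from 0.493 to 110 CPM. The 2′,5′-oligoadenylate synthetases, which make the activator of RNase L, were low. Oas3 was counted in 3 libraries and Oas2 in 6, and Oas1a in 11 with at most 36.1 CPM. Of the related Oasl1 and Oasl2, the former was counted in 3 libraries and the latter in 14. Zbp1, a sensor of Z-form nucleic acids, was counted in 8 libraries. Ifi203 and Ifi204 belong to a family of interferon-inducible proteins of which some bind DNA, and they were counted in 2 and 15 libraries.

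Among the proteins that bind RNA or act on nucleotides, only Samhd1, which hydrolyses deoxynucleotide triphosphates, was counted in all libraries. The RNA-binding Ifit1, Ifit2 and Ifit3 were counted in 4, 11 and 16 libraries, with at most 5.21, 46.3 and 58.9 CPM. Rsad2, which encodes viperin, was counted in 3 libraries, its chromosomal neighbour Cmpk2, a mitochondrial nucleotide kinase, in 4, and the exonuclease gene Isg20 in 7. None of the 6 genes grouped here under membrane and capsid restriction was counted in every library. Bst2 (tetherin) and Rtp4 were counted in 17, Mx2 in 14, Mx1 and Ifitm3 in 12 and Ifitm2 in 3. Bst2 had 160 CPM in 16p11dup-THC replicate 3 and at most 57.8 CPM in the other 17 libraries.

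The GTPases of intracellular defence were better represented. Gbp7, Igtp and Irgm1 were counted in all 18 libraries and Gbp3 in 16, whereas Gbp2 was counted in 5. Gbp7 had 536 CPM in WT-THC replicate 2 and 15.3 to 291 CPM elsewhere. Isg15, the ubiquitin-like modifier, was counted in 5 libraries at up to 12.8 CPM, while the ligase gene of mouse ISG15, Herc6, was counted in all 18 (9.78 to 185 CPM), as was Trim25, a ligase that acts in RIG-I signaling (8.28 to 320 CPM). Of the genes of transcription, nuclear bodies and ADP-ribosylation, Stat2, Parp9, Parp12 and Parp14 were counted in every library, and Sp100, a nuclear body protein, in 14. Stat2, a subunit of the factor that binds the ISRE, ranged from 0.664 to 109 CPM. Of the rest, Ifi35 and Xaf1 were counted in 17 libraries, Ifi27l2a in 7 and Ifi44 in 1.

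A single library held counts for every gene of the set. WT-Veh replicate 6 had a count for 44 of the 44 genes, and the other 17 libraries had one for 25 to 35. The same library was the deepest, and it had a count for 88.4% of the 13964 genes with any count, compared with 62.9% to 83% in the others. At the depth of the shallowest library (7045443 counts), 44 of the 44 genes and 86.7% of all genes would still be expected with a count there. This expectation thins the counts only. It cannot account for the number of cells or RNA molecules that entered each library, which was not tested. It held all 14 genes that were counted in fewer than 9 libraries, of which the others held 0 to 5, and 59.6% of the 3909 genes of the whole table with that property, of which the others held 8.80% to 41.9%. Ifi44 was counted in WT-Veh replicate 6 alone, at 0.980 CPM. Counts there were not at a trace level throughout, with 61.2 CPM for Ifih1, 49.98 for Ifit3, 47.8 for Oasl2 and 33.3 for Ifitm3. These genes were not among the 14. Of the 14, Ifi27l2a had 25.2, Oas2 18.2 and Rsad2 13.6 CPM, and the rest 0.464 (Ifi203) to 7.17 CPM (Isg20). Together the 14 summed to 90.1 CPM there. The summed level of all 44 genes in this library was 2426 CPM, within the 1648 to 2727 CPM of the other WT-Veh libraries. This library also had the lowest summed level of microglial markers (17905 CPM) and the lowest of the dissociation genes among the WT-Veh libraries (290 CPM), and its astrocyte markers summed to 274 CPM compared with 107 to 165 CPM in the other 5 WT-Veh libraries. Their part in the counts of this library was not tested.

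**Figure D2:**
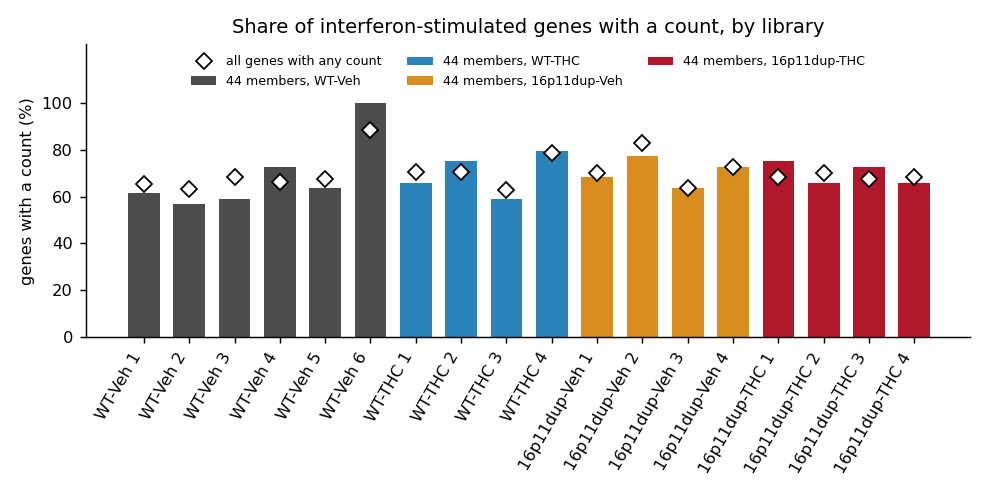
Percentage of the 44 genes with a count in each of the 18 libraries (bars, coloured by group) and of all 13964 genes with any count (diamonds). Bars lie between 56.8% and 79.5% except in WT-Veh replicate 6, where the bar reaches 100% and the diamond 88.4%.

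Other genes were also concentrated in 1 library, though not always in that one. For 15 of the 44 genes (34.1%), more than 50% of the CPM summed over 18 libraries lay in 1 library, compared with 31.5% of all genes with any count. WT-Veh replicate 6 was that library for 4 of the 15, and no other library for more than 2. WT-Veh replicate 4 held 147 CPM of Oasl2, 112 of Ifitm3, 58.9 of Ifit3 and 36.1 of Oas1a, the highest value of each over the 18 libraries. WT-Veh replicates 4 and 6 were thus the 2 highest of 18 for Oasl2, Ifit3, Ifitm3 and Oas1a, which were picked out after their values were seen. The other WT-Veh libraries had at most 0.141 CPM of Oasl2, 3.59 of Ifit3, 11 of Ifitm3 and 0.848 of Oas1a. WT-Veh replicate 4 had a count for 32 of the 44 genes. Isg15, Ifit1, Mx1 and Rsad2 were at 0 CPM there, and Ifit2 was at 0.339 CPM. In 16p11dup-THC replicate 1 Oas2 reached 37.4 CPM, and in WT-THC replicate 1 Rsad2 reached 37.4 CPM. In 16p11dup-Veh replicate 1 Ifi27l2a reached 55.2 CPM. Neutrophil markers summed to 192 CPM in that library, to 95.8 CPM in WT-THC replicate 2 and to at most 0.647 CPM elsewhere. WT-THC replicate 2, the highest for Gbp7, also had the highest sum of border macrophage markers (183 CPM). The part of such cells in these values was not tested.

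No gene of the set passed FDR < 0.10 in any of the 5 comparisons or for the interaction in limma, and at an unadjusted p under 0.05 there were 4 differences in all, each toward lower values. The interaction is the THC difference in 16p11dup minus that in wild-type. FDR is the Benjamini-Hochberg adjusted p over 22428 genes, and the unadjusted shares refer to the 13964 genes with any count. In WT-THC compared with WT-Veh, at an unadjusted p under 0.05 in limma 0 of 44 were higher and 2 lower (all genes, 2.35% higher and 1.73% lower), with 0.00892% of all genes at FDR < 0.10. In 16p11dup-Veh compared with WT-Veh, 0 were higher and 1 lower (all genes, 2.29% and 1.35%), with 0.0% at FDR < 0.10. In 16p11dup-THC, 0 of 44 were higher than in WT-Veh and 0 lower (all genes, 2.69% and 2.84%, and 0.00446% at FDR < 0.10), and 0 were higher than in WT-THC and 0 lower (all genes, 2.45% and 3.35%, and 0.00446% at FDR < 0.10). Compared with 16p11dup-Veh, 0 were higher and 1 lower in 16p11dup-THC (all genes, 1.96% and 3.19%, and 0.0% at FDR < 0.10). For the interaction, 0 were above and 0 below 0 (all genes, 1.73% and 2.85%, and 0.0% at FDR < 0.10). The members' counts were thus near the background shares. With edgeR, likewise 0 passed FDR < 0.10 in every comparison, and edgeR called 1 to 26 of all 13963 genes that it fitted. DESeq2 called 2, 1, 1, 3, 3 and 4 of the 44 in the same order, and 4.38%, 3.25%, 7.46%, 6.55%, 5.86% and 5.81% of all genes.

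In limma, the median of the set lay below 0 for WT-THC and 16p11dup-Veh and near 0 for 16p11dup-THC, relative to WT-Veh, and single libraries moved each of these medians. The median log2 fold change was -0.61 in WT-THC (17 of 44 above 0), compared with -0.11 for all genes with any count. It was -0.52 in 16p11dup-Veh (18 above 0), compared with 0.03 for all genes. It was 0.00 in 16p11dup-THC (22 above 0), compared with -0.10 for all genes. Relative to WT-THC and to 16p11dup-Veh, 16p11dup-THC had medians of 0.52 and 0.37 (29 above 0 in each), compared with 0.05 and -0.06 for all genes. These comparisons share their control libraries. For the interaction, 33 of 44 genes lay above 0 with a median of 0.73, and none passed an unadjusted p under 0.05 in limma (smallest unadjusted p = 0.0507, Eif2ak2, in limma). The 16 genes counted in every library had medians of -0.48, -0.23 and 0.18 against WT-Veh, 0.59 and 0.34 in the other comparisons, and 0.79 for the interaction. Without WT-Veh replicate 6, the medians of the 44 genes against WT-Veh were -0.13 for WT-THC, 0.00 for 16p11dup-Veh and 0.35 for 16p11dup-THC, and the interaction median was 0.10 with 23 of 44 above 0. Other libraries also moved the medians by more than 1.5 times. The WT-THC median was -0.37 without WT-Veh replicate 5, -0.18 without WT-THC replicate 1 and -0.30 without WT-THC replicate 3. The 16p11dup-Veh median was -0.28 without 16p11dup-Veh replicate 1 or 3 and -0.22 without replicate 4, and that of 16p11dup-THC against WT-Veh ranged from -0.41 to 0.35. Against WT-THC, the 16p11dup-THC median was 0.16 without WT-THC replicate 1 and 0.09, 0.21 and 0.26 without 16p11dup-THC replicate 1, 3 and 4. Against 16p11dup-Veh, it was 0.15 without WT-Veh replicate 6, 0.17 without 16p11dup-THC replicate 4 and 0.67 without 16p11dup-THC replicate 2, and the interaction median was 1.3 without the latter. In edgeR and DESeq2 the median of 16p11dup-THC against WT-Veh was -0.35 and -0.38, and that of the interaction 1.82 and 1.53, where all genes had interaction medians of 0.24 and 0.23. Without the percentage of mapped reads in limma, the 16p11dup-THC medians were 0.25 against WT-THC and 0.11 against 16p11dup-Veh. The interaction median was then 0.62, with 28 of 44 genes above 0. With an offset of 2 counts or voom weights from the design, the median against WT-THC was 0.33. With the 5 surrogate variables added the interaction median was 1.02, and without voom weights 1.05.

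**Figure D3:**
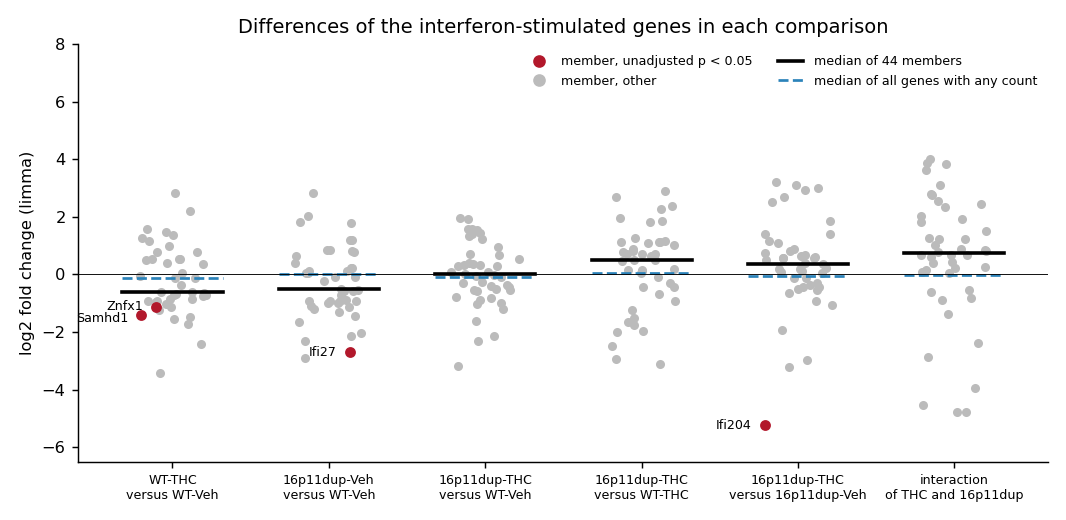
Log2 fold change of each of the 44 genes (limma) in the 5 comparisons and for the interaction, with the median of the 44 genes (black line) and of all 13964 genes with any count (dashed line); red points have an unadjusted p under 0.05. The 4 red points, Samhd1, Znfx1, Ifi27 and Ifi204, all lie below 0.

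**Figure D4:**
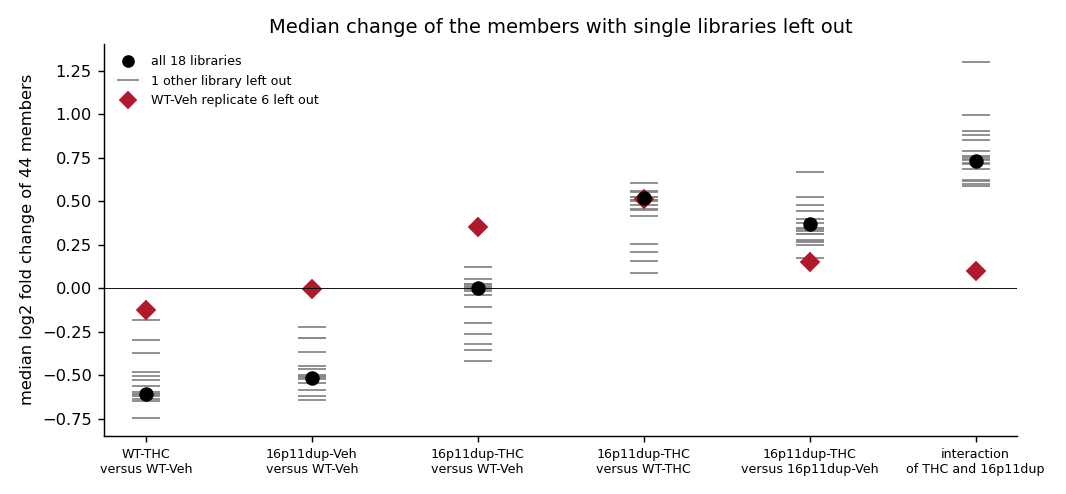
Median log2 fold change of the 44 genes with all 18 libraries (black circles), with WT-Veh replicate 6 left out (red diamonds) and with each other library left out (grey marks). The interaction median is 0.73 with all libraries and 0.10 without WT-Veh replicate 6.

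Znfx1 and Samhd1 were lower in WT-THC than in WT-Veh at an unadjusted p under 0.05. Znfx1 (chromosome 2, 167035793 to 167063015 of GRCm38) had 244, 356, 80.1, 134, 229.6 and 132 CPM in WT-Veh and 37.2, 104, 95.9 and 71.1 CPM in WT-THC. It had 149, 175, 135 and 139 CPM in 16p11dup-Veh and 159.6, 53.8, 316 and 185 CPM in 16p11dup-THC. WT-THC and WT-Veh overlapped only through WT-Veh replicate 3, and both 16p11dup groups overlapped WT-Veh. The mean was 77.0 ± 29.9 CPM in WT-THC (SD, n = 4) and 196 ± 100 CPM in WT-Veh (SD, n = 6). The log2 fold change was -1.11 (SE 0.31, unadjusted p = 0.00293, FDR = 0.744 from limma), and an exact two-sided permutation test of the log2 CPM gave p = 0.0286. With each library left out in turn the log2 fold change lay between -1.24 and -0.88 and kept an unadjusted p under 0.05 in all 18 cases. With the 5 surrogate variables added it was -0.69, and the unadjusted p was 0.0595 where a count in at least 9 libraries was required and 0.0931 in edgeR.

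Samhd1 (chromosome 2, 157097533 to 157135265) had 1177, 534, 46.1, 397, 233 and 119 CPM in WT-Veh and 30.4, 67.5, 151 and 116 CPM in WT-THC. It had 59.3, 119, 257 and 77.2 CPM in 16p11dup-Veh and 117, 314, 301 and 182 CPM in 16p11dup-THC. The WT-Veh libraries spanned a wide range from WT-Veh replicate 3 to WT-Veh replicate 1 and overlapped all other groups. The log2 fold change in WT-THC was -1.40 (SE 0.63, unadjusted p = 0.0409, FDR = 0.744 from limma), and the exact two-sided permutation test gave p = 0.0857. The unadjusted p was above 0.05 without WT-Veh replicate 1, 2 or 4 or WT-THC replicate 1, 2 or 3, where the log2 fold change lay between -1.32 and -1.15 (p from 0.0717 to 0.106 in limma), and with the 5 surrogate variables added, where it was -0.93 (p of 0.285). With voom weights from the design the p was 0.0501. In WT-THC, 2 of 9 microglial markers and 2 of 9 dissociation genes were higher at an unadjusted p under 0.05 in limma (all genes, 2.35%). In the same test 1 of 6 endothelial markers was lower (all genes, 1.73%). The dissociation genes summed to 423 to 1129 CPM in WT-THC, compared with 290 to 528 CPM in WT-Veh. The part of these markers and genes in the values of Znfx1 and Samhd1 was not tested.

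Ifi27, which encodes a small hydrophobic protein strongly induced by type I interferon, was lower in 16p11dup-Veh than in WT-Veh at an unadjusted p under 0.05. Its level (chromosome 12, 103434211 to 103440239) was 13.1, 450.1, 162, 23.4, 170.5 and 80.4 CPM in WT-Veh and 1.62, 50.1, 136 and 2.54 CPM in 16p11dup-Veh. It was 70.5, 129, 78.6 and 63.3 CPM in WT-THC and 51.1, 96.7, 79.6 and 100.5 CPM in 16p11dup-THC. In 16p11dup-Veh 2 libraries were below every other library of the study, and the other 2 lay within the range of WT-Veh. The log2 fold change was -2.71 (SE 1.12, unadjusted p = 0.0291, FDR = 0.982 from limma), and the exact two-sided permutation test gave p = 0.143. The unadjusted p was above 0.05 without WT-Veh replicate 2, 3 or 6 or 16p11dup-Veh replicate 1 or 4, where the log2 fold change lay between -2.74 and -1.76 (p from 0.0523 to 0.153 in limma), and in edgeR and DESeq2, where it was -1.60 and -1.61 (p of 0.0798 and 0.103). With voom weights from the design the p was 0.0599. The difference between 16p11dup-THC and 16p11dup-Veh was 2.70 on the log2 scale (SE 1.28, unadjusted p = 0.0530 in limma). Between 16p11dup-Veh and WT-Veh, 1 of 9 dissociation genes, 1 of 4 neutrophil markers and 1 of 5 monocyte markers were higher in the former. This was at an unadjusted p below 0.05 in limma (all genes, 2.29%). The part of these genes in the values of Ifi27 was not tested.

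Ifi204 was lower in 16p11dup-THC than in 16p11dup-Veh at an unadjusted p under 0.05. Its level (chromosome 1, 173747293 to 173766943) was 5.48, 0, 0.0919 and 0.870 CPM in 16p11dup-THC and 0.926, 2.19, 61.7 and 12.5 CPM in 16p11dup-Veh. It was 55.4, 0.123, 0, 1.02, 8.48 and 51.2 CPM in WT-Veh and 0, 6.23, 2.79 and 3.8 CPM in WT-THC. The 2 groups compared overlapped through 16p11dup-THC replicate 1. The log2 fold change was -5.23 (SE 2.24, unadjusted p = 0.0339, FDR = 0.83 from limma), a size that depends on the 0.5 counts added to each value, and the exact two-sided permutation test gave p = 0.114. The unadjusted p was above 0.05 without WT-THC replicate 1, 16p11dup-Veh replicate 3 or 4, or 16p11dup-THC replicate 2, 3 or 4, where the log2 fold change lay between -5.14 and -4.18 (p from 0.0537 to 0.0994 in limma). It was also above 0.05 with the 5 surrogate variables added, where the log2 fold change was -2.12, and without the covariate, where it was -3.93. It was 0.0576 without voom weights and 0.103 in edgeR. Between these groups, 3 of 9 microglial markers were higher in 16p11dup-THC at an unadjusted p under 0.05 in limma. So were 1 of 5 neuron markers and 1 of 5 oligodendrocyte markers (all genes, 1.96%). In 16p11dup-Veh replicate 3, the highest for Ifi204, the pericyte marker Rgs5 had 96.7 CPM and the astrocyte marker Aqp4 121 CPM. The part of all these markers in the values of Ifi204 was not tested.

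The libraries of 2 compared groups did not overlap for 1 gene of the set in the 5 comparisons, which was singled out after its values were seen. Ifit3 (chromosome 19, 34583531 to 34588731) had 23.2, 17.1, 14.5 and 13 CPM in 16p11dup-Veh and 1.34, 0.0920, 2.85 and 1.85 CPM in 16p11dup-THC. It had 17.4, 0.107, 22.7 and 17.8 CPM in WT-THC, and in WT-Veh 0, 0.123, 3.59, 58.9, 0 and 49.98 CPM. In WT-Veh 2 libraries were thus above, and the other 4 below, every 16p11dup-Veh library. The log2 fold change of -3.21 in 16p11dup-THC compared with 16p11dup-Veh had an SE of 2.25 in limma (unadjusted p = 0.174, FDR = 0.83). Of all genes with any count, 2.11% did not overlap in this comparison. In the other 4, where 0 of 44 did not overlap, the share of all genes was 0.465% in WT-THC and 0.48% in 16p11dup-Veh against WT-Veh, and 0.616% and 2.08% in 16p11dup-THC against WT-Veh and WT-THC.

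**Figure D5:**
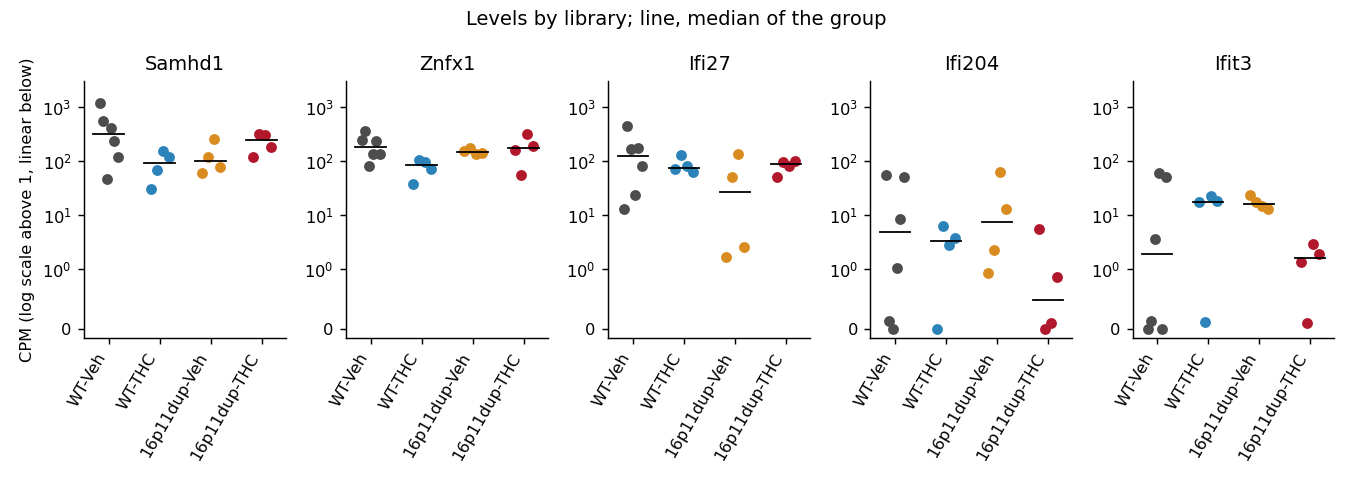
Level of Samhd1, Znfx1, Ifi27, Ifi204 and Ifit3 in each library (points) by group, in CPM on an axis that is logarithmic above 1 and linear below, with the median of each group as a line. Ifit3 lies between 13 and 23.2 CPM in the 4 16p11dup-Veh libraries and between 0.0920 and 2.85 CPM in the 4 of 16p11dup-THC.

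Many genes of the pathway upstream of the set were counted in all 18 libraries. The interferons themselves were nearly absent, and some other genes were counted in only part of the libraries or in none. Of 10 ligand genes, 9 were at 0 in all 18 libraries, and Ifnk had 1 count in 16p11dup-Veh replicate 1. A count of 0 allows a level of up to 3 counts, which is 0.155 to 0.424 CPM depending on the library and covers counting error only. Of 6 receptor genes, Ifnar1, Ifnar2, Ifngr1, Ifngr2 and Il10rb were counted in all 18 libraries, and Ifnlr1, which encodes the receptor of interferon-λ, in none. The kinases Jak1, Jak2 and Tyk2 were counted in all libraries, as were the transcription factors Irf9 (0.399 to 171 CPM) and Irf3. Irf7, an inducible regulator of interferon genes, was counted in 12 libraries at up to 31.2 CPM. Of 12 sensors and adaptors 9 were counted in all libraries, with a median of 1088 CPM for Tlr7 and 371 CPM for Tmem173, which encodes STING. Of 5 inhibitors, Ptpn2 and Pias1 were counted throughout, while Usp18, which removes ISG15 from proteins, was counted in 9 libraries.

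Of the 41 pathway genes, 0 passed FDR < 0.10 in limma in any comparison, and an unadjusted p under 0.05 was reached by 0 to 2 toward higher and 0 to 1 toward lower values, compared with 1.73% to 2.69% of all genes with any count toward higher and 1.35% to 3.35% toward lower values. Of the 41 genes, 31 had any count. Socs1, an inhibitor of JAK kinases, had 0, 3.98, 122 and 0 CPM in WT-THC, and 1 count in 1 of 6 WT-Veh libraries. The value of WT-THC thus came from 2 of 4 libraries. Its log2 fold change was 5.05 (SE 1.24, unadjusted p = 0.000994, FDR = 0.744 from limma), whereas the exact two-sided permutation test gave p = 0.238. In 16p11dup-THC Socs1 was at 0 in all 4 libraries, with an unadjusted p of 0.000784 (FDR = 0.965 from limma) against WT-THC and an exact permutation p of 0.429.

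Jak2 had 42.5, 60.9, 344 and 392 CPM in 16p11dup-Veh and 3.75, 22.2, 110.3, 14.6, 64.5 and 32.2 CPM in WT-Veh. The 2 highest 16p11dup-Veh libraries were above every WT-Veh library, and the other 2 were not. Its log2 fold change was 2.28 (SE 0.85, unadjusted p = 0.0171, FDR = 0.982 from limma), with p = 0.0667 in the exact two-sided permutation test. Ifnar2, a subunit of the type I interferon receptor, had 158, 254, 138 and 288 CPM in 16p11dup-THC and 238, 133, 98.2 and 61.4 CPM in 16p11dup-Veh, which overlapped. Its log2 fold change was 1.00 (SE 0.43, unadjusted p = 0.0339, FDR = 0.83 from limma), and the exact permutation test gave p = 0.143. Tlr7, a receptor for single-stranded RNA that drives interferon production, was at 1224, 1414, 1397 and 1939 CPM in 16p11dup-THC. In 16p11dup-Veh it was at 765, 661, 1421 and 437 CPM, with 1 library within the range of 16p11dup-THC. Its log2 fold change was 1.08 (SE 0.33, unadjusted p = 0.00479, FDR = 0.83 from limma), and the exact permutation test gave p = 0.114. For the interaction, Ifnar2 (1.25, SE 0.57, unadjusted p = 0.0455), Tlr7 (1.01, SE 0.43, unadjusted p = 0.0338) and Socs1 (-7.11, SE 1.88, unadjusted p = 0.00188) were under 0.05 in limma, each with an FDR of 0.973. In 16p11dup-THC compared with 16p11dup-Veh, 3 of 9 microglial markers were also higher at an unadjusted p under 0.05 in limma. So were 1 of 5 neuron markers and 1 of 5 oligodendrocyte markers (all genes with any count, 1.96%). The part of these markers in these values was not tested.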

How the data were processed

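RNA-seq of sorted microglia was analysed in 18 libraries of 4 groups. Per the labels and the paper's methods, low-input libraries were made with a Nugen Ovation kit (the paper's results name Smart-seq2), and the authors used STAR and the GRCm38 build for alignment and RSEM 1.3.0, ignoring strand, for counting. Deposited log2 values of the authors are log2 CPM with 0.5 counts added, on scaled library sizes, and expected counts were recovered from them in steps of 0.01. Of the non-zero counts recovered, 94.3% were whole. Counts of reads and mapped reads per library are whole numbers as deposited, and the fraction of mapped reads is the ratio of these deposited counts. The 5 surrogate variables are scores deposited by the authors. The authors left out 4 libraries as outliers, and these are not analysed here.

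The 44 genes, the role groups and the pathway list were chosen with earlier results of these data known. limma 3.58.1 fitted group (4 levels) plus percent mapped to the 18 libraries, with voom weights, two-sided tests and Benjamini-Hochberg adjustment over 22428 genes. Genes with an unadjusted p under 0.05 were given by library, with the 8 highest levels per kb and the 3 smallest and 3 largest SDs of log2 CPM, and other genes were named by role or after their values were seen. Single genes were tested by exact permutation of the libraries. Alternatives were edgeR 4.0.16 and DESeq2 1.42.0 on rounded counts, an offset of 2 counts, a count in at least 9 libraries, other weights or covariates, and each library left out. Tests were tested on simulated data. Exon lengths and positions are from GENCODE on GRCm38. The spread between libraries sets the precision. R 4.3.3 and Python 3.11.15 were used. A gene of the pathway list is not reported here by name.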

Additional observations from a re-analysis of the deposited data

Results flagged for a closer look

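In 60 tests of a group of 4 or 6 libraries, 5 values stood far from the others of their group, and chance alone flags about 1 in 20 groups. WT-Veh replicate 6 had a count for 44 of the genes, where the other WT-Veh libraries had 25 to 32. The summed level of the set was 2688 CPM in 16p11dup-THC replicate 3 and 1627 to 1783 CPM in the others of that group. Trim25 had 276 CPM in 16p11dup-Veh replicate 3, compared with 52.7 to 68.9 CPM in the others of that group. Ifih1 had 7.09 CPM in 16p11dup-THC replicate 1, compared with 52.4 to 75.2 CPM in the others. Ifi204 had a level of 0 CPM in WT-THC replicate 1 and 2.79 to 6.23 CPM in the other WT-THC libraries.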

How the results depend on the processing

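Counts of genes at an unadjusted p under 0.05 are given in the order WT-THC, 16p11dup-Veh and 16p11dup-THC against WT-Veh, 16p11dup-THC against WT-THC and against 16p11dup-Veh, and the interaction, and were 2, 1, 0, 0, 1 and 0 in limma. They were 4, 2, 0, 6, 2 and 6 with edgeR, 5, 3, 5, 5, 6 and 7 with DESeq2, and 2, 3, 1, 1, 3 and 2 with the 5 surrogate variables added. They were 3, 2, 1, 0, 2 and 2 without voom weights, 3, 1, 0, 2, 1 and 2 with weights from the design, 1, 1, 0, 0, 2 and 1 with a count required in at least 9 libraries, 2, 1, 0, 1, 1 and 1 without the covariate, and 2, 1, 0, 0, 1 and 1 with an offset of 2 counts. Leaving out 1 library gave 1 to 4, 0 to 2, 0 to 3, 0 to 3, 0 to 2 and 0 to 3. At FDR < 0.10 the counts were 0 throughout, and also with each library left out (0 to 0), except with DESeq2, which called 2, 1, 1, 3, 3 and 4, beside 611, 454, 1042, 914, 818 and 811 of 13963 genes in all. Of all genes, DESeq2 had 9.10% to 14.7% at an unadjusted p under 0.05 and edgeR 7.49% to 8.84%. The DESeq2 calls were Oasl2, Samhd1, Isg15, Ifitm2, Oas2 and Gbp3. Isg15 was counted in 1 of 6 WT-Veh libraries and in 0 of 4 of 16p11dup-Veh, and Ifitm2 in 0 of 4 of 16p11dup-THC and in 1 library of each other group. The cause of the differences between tools was not tested. Znfx1, Samhd1, Ifi27 and Ifi204 kept the direction of their log2 fold change under every alternative. Under the 8 alternatives other than leaving out a library, the unadjusted p stayed under 0.05 in 6 for Znfx1, 6 for Samhd1, 5 for Ifi27 and 4 for Ifi204. With edgeR and DESeq2 the median log2 fold change of all genes in WT-THC was -0.21, and that of the set was -0.97 and -0.89. The medians of the set in the other 5, in the same order, were -0.79, -0.35, 0.65, 0.69 and 1.82 with edgeR and -0.78, -0.38, 0.63, 0.47 and 1.53 with DESeq2. No paired analysis was possible because the labels give no replicate numbers shared by the groups. At the depth of the shallowest library, each library would be expected to keep a count for 23.3 to 44 of the genes.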

Other observations

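Over the 18 libraries, after subtraction of the group means, the 16 genes counted in every library were compared in pairs. The median Spearman rho over the 120 pairs was -0.001, compared with 0.001 over all pairs of the 5520 genes counted in every library, and 4.17% of their pairs lay beyond 0.5 in either direction, compared with 6.55% of all pairs. The ends were Eif2ak2 with Ifi27 (rho -0.65) and Herc6 with Trim30a (rho 0.58). All points share the libraries and their depth, and these values are a description.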
